A study of Homo sapiens with 12 samples.

Results

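The comparison asked how the polyadenylated transcriptome of NCM460 cells exposed to TNF-α differed when 5-OH-TMT was also present. NCM460 is a human line labelled as normal colonic epithelium, and all 6 libraries compared were wild type: 3 received TNF-α alone and 3 received TNF-α with the compound that the labels call Bufotenidine, which is 5-OH-TMT (5-hydroxy-N,N,N-trimethyltryptamine), a quaternary ammonium derivative of the tryptamine bufotenine. The 6 other libraries of the 12 in the series, 3 from wild-type cells in medium and 3 from HTRA2 knockdown cells under TNF-α, entered the fit only to share its estimate of the spread, and medium values are given beside some genes for orientation. A noncytotoxic concentration was chosen for work in this line, but the dose and exposure time of the sequenced cultures themselves are not given in the sources used here. Nothing states that replicates came from separate cultures, so the p-values measure the spread between these samples, which may be technical. Genes were kept where FPKM (reads scaled by gene length and library size) averaged at least 1 over the 6 libraries, which left 11138 of the 58735 genes in the table. The gene with the lowest mean inside this limit had 1.001 FPKM and the highest outside it had 0.9999 FPKM.

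TNF-α is a cytokine that binds its receptors at the cell surface and drives NF-κB, a transcription factor normally held in the cytoplasm by inhibitors, so that chemokines, adhesion molecules and the inhibitors themselves are transcribed. In the gut epithelium it is known for loosening the barrier between cells. Indole compounds are commonly read through the aryl hydrocarbon receptor, a ligand-activated transcription factor whose classical target is the monooxygenase CYP1A1, and cells adjust their sterol and fatty acid supply through the SREBP transcription factors, which are released from the endoplasmic reticulum when sterols are scarce. HTRA2 is a serine protease of the mitochondrial intermembrane space, and Dectin-1, encoded by CLEC7A, is a C-type lectin receptor for fungal glucans that signals through SYK and CARD9.

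Reads on genes numbered between 31526461 and 36115461 in the TNF-α libraries and between 35563523 and 36407127 in the 5-OH-TMT libraries. Within groups, the median gene had a standard deviation of 0.107 on the log2 scale under TNF-α and 0.0874 under TNF-α with 5-OH-TMT, against 0.140 in medium and 0.144 in the knockdown. The cell label was only partly met: of 15 colon epithelium markers, 5 averaged at least 1 FPKM and 8 had no more than 3 reads in each of the 6 libraries. Their summed level was 2261 to 2509 FPKM under TNF-α and 2498 to 2685 FPKM with 5-OH-TMT. This sum rests on the 5 measured members of a list that includes the keratins KRT8, KRT18 and KRT19, and does not establish colon identity. Of 10 squamous or basal epithelium markers 9 averaged at least 1 FPKM. Their summed level was 1037 to 1073 FPKM under TNF-α and 1200 to 1275 FPKM with 5-OH-TMT. None of 14 leukocyte markers reached an average of 1 FPKM (summed level 0.602 FPKM at most), nor did most fibroblast (3 of 11) or endothelial (1 of 7) markers. These being bulk libraries, fewer cells of a type and less RNA per cell cannot be told apart.

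The shifts with 5-OH-TMT were small. The middle 90% of genes lay between log2 differences of -0.37 and 0.37 (5-OH-TMT minus TNF-α, on the log2(FPKM + 0.1) scale used throughout), with a median of -0.0012. limma with Benjamini-Hochberg adjustment placed 124 genes under an adjusted p of 0.05, of which 78 rose (0.700% of those tested) and 46 fell (0.413%). Differences among them ran from 0.32 to 2.02 in size with a median of 0.51. Most sat at the edge of the call: 68 of the 124 had an adjusted p of at least 0.045, and 1217 further genes lay between 0.05 and 0.10. Without adjustment, 3065 genes had p under 0.05, 1444 higher and 1621 lower. Only 6 of the 124 changed more than 2-fold, among them CYP1A1, FOLR1, the pseudogenes PDIA3P2 and MEMO1P1, and the small nucleolar RNA SNORA5A.

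The number of calls depended on the fit and on single libraries. All 3 libraries with 5-OH-TMT were above all 3 with TNF-α alone for 2376 genes (21.3%) and below them for 2352 (21.1%). Counts above and below in the gene lists that follow are to be read against these shares, which differ by GC content. A fit to the 6 libraries alone, which uses only their own narrower spread, called 1099 genes higher (9.87%) and 1058 lower (9.50%). Leaving out 1 of the 6 libraries reduced the 124 calls to 11, 2 and 7 without TNF-α replicates 1, 2 and 3, and to 2, 26 and 4 without 5-OH-TMT replicates 1, 2 and 3. Leaving out a library of the other groups gave 52, 824 and 114 calls without medium replicates 1, 2 and 3 and 56, 1320 and 55 without the knockdown replicates 1, 2 and 3. CYP1A1 was the only gene called whichever of the 12 libraries was left out, EGR1 was called in 11 of the 12 fits, and 42 of the 124 were called in at least 6. Among genes described below, 9 of the 12 fits kept the calls of SCD, WNT4 and FOLR1, and 8 kept those of SREBF1, SNCG and WFDC2. LSS, FOS, PSMB9, UCN2, SLC2A6, MRPL1, RFC3 and SPCS2 were called in 7, and FDFT1, ACSS2, PSMB10, CDKN1A, ASS1, LYAR, HSPA9, MCM6, NT5E, FST, MEMO1P1 and PDIA3P2 in 6. The calls of AHRR, TM7SF2, SREBF2, JUN, JUNB, IFI35, APOBEC3G, WNT10A, TP53I3, KRT13, CHAC1, PHGDH, RSL1D1, NCL, NOLC1, MAD2L1, F3 and TJP3 were kept in only 2 to 5.

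A feature shared by the shifted genes was their base composition. GC content was taken from each gene's longest transcript in GENCODE 29. The median was 57.4% for the genes that rose, 42.3% for those that fell and 49.0% for all. Across genes, which share the same libraries and are not independent replicates, the log2 difference followed GC content with a Spearman correlation of 0.69 (Pearson 0.60). In the lowest of 5 equal bins of genes by GC content (median 38.8%) the median difference was -0.22, and 51.5% of genes were below all TNF-α libraries while 0.718% were above. In the highest bin (median 61.7%) it was 0.21, with 0.494% below and 53% above. Of the 78 genes that rose 64 were in the upper 2 bins, and of the 46 that fell 37 were in the lower 2.

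Each library's slope on GC content, relative to the mean of all libraries, was 0.15, 0.095 and 0.097 log2 units per 10 percentage points in 5-OH-TMT replicates 1 to 3 and -0.074, -0.030 and -0.085 in the TNF-α replicates. The 2 groups did not overlap. However, libraries of a single group spread as widely elsewhere: -0.051, 0.12 and -0.12 in medium, and 0.025, -0.17 and 0.049 in the knockdown. Whether the slope arose in the cells or in library preparation was not tested, and with 3 libraries a group the compound and the slope cannot be told apart. Differences are therefore given as deposited and, in a setting chosen after the data were seen, after a smooth curve on GC content had been taken out of each library ("GC-adjusted"). That left 29 genes called higher (0.260%) and 6 called lower (0.0539%), and 1339 above (12%) and 1333 below (12%) all TNF-α libraries. Of the 35 GC-adjusted calls, 30 were among the 124. All 124 kept their sign, and 121 still had no overlap between groups. The GC-adjusted calls numbered 12, 7 and 7 without TNF-α replicates 1 to 3. Without 5-OH-TMT replicates 1 to 3 they numbered 2, 44 and 7. Over the 12 fits with a library left out, CYP1A1 was called in 12, EGR1, SCD and SREBF1 in 11 and PSMB9 in 10. FDFT1, FOLR1 and FOS were called in 8 and NT5E in 7. WNT10A was called in 4, WNT4, UCN2, WFDC2 and PSMB10 in 3, and TIPARP in 1. LSS, ACSS2, CDKN1A, LYAR and APOBEC3G were called in 2.

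**Figure D1:**
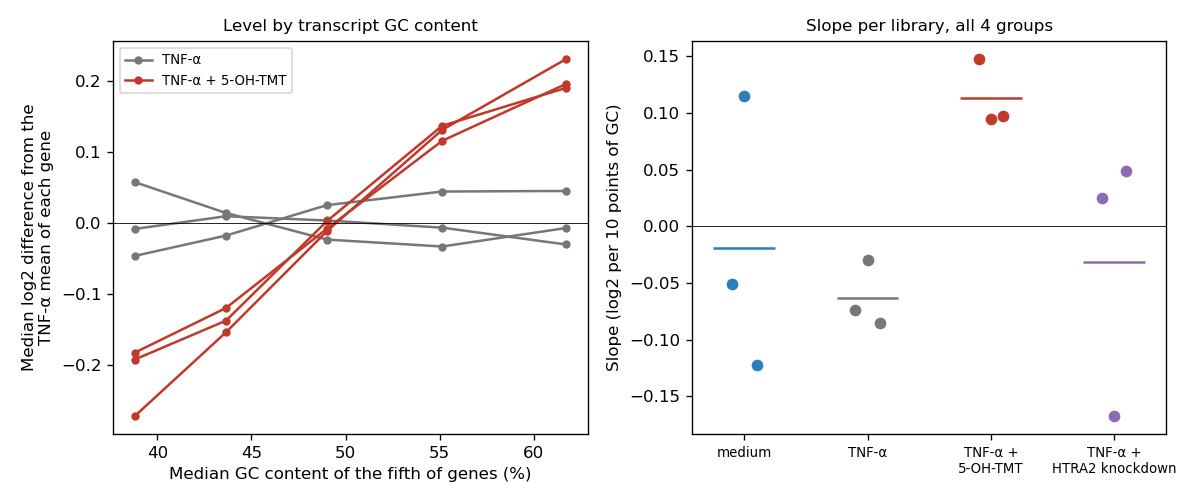
GC content and library level. Left, median log2 deviation from the TNF-α mean in each of 5 equal bins of genes by GC content, 1 line per library (TNF-α and 5-OH-TMT). Right, slope of each library on GC content in log2 units per 10 percentage points, 3 points for each of the 4 groups. The 5-OH-TMT libraries lie between 0.095 and 0.15 and the TNF-α libraries between -0.085 and -0.030, while the medium and knockdown libraries spread on both sides of 0.

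**Figure D2:**
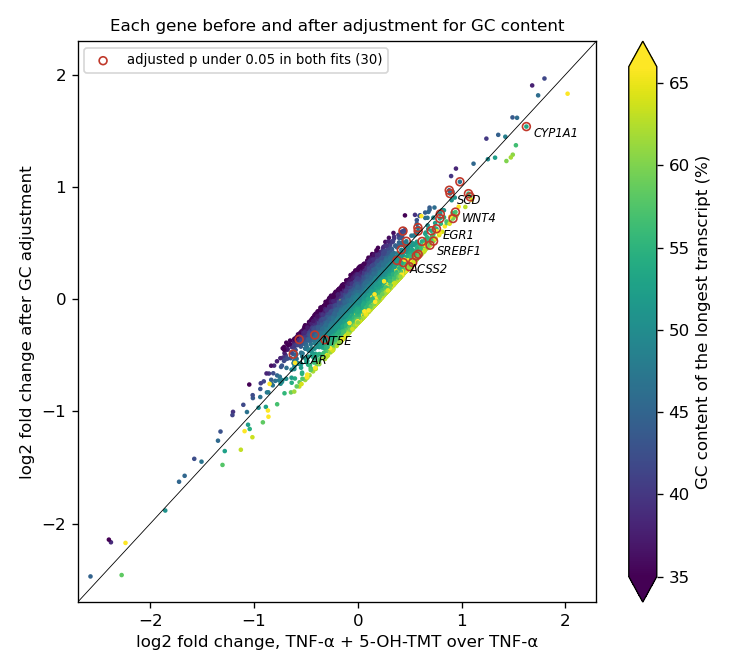
Log2 difference between 5-OH-TMT and TNF-α for each gene as deposited (x axis) and after GC adjustment (y axis), coloured by GC content in percent. Circles mark the 30 genes called in both. Among the circled genes CYP1A1 has the largest difference, 1.63 as deposited and 1.54 adjusted.

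CYP1A1, a cytochrome P450 monooxygenase that oxidises polycyclic and indole substrates, had the smallest adjusted p of all genes. Its gene (ENSG00000140465, protein coding, hg38 chr15:74719542-74725610, minus strand) stood at 5.17, 4.64 and 6.09 FPKM under TNF-α and at 18.8, 17.0 and 14.0 FPKM with 5-OH-TMT. These groups were far apart, and the medium libraries, at 13.5, 15.4 and 14.0 FPKM, overlapped the lower part of the 5-OH-TMT range. The log2 difference was 1.63 ± 0.12 (SE, n = 3 per group; limma, adjusted p = 3.94e-05), and GC adjustment left 1.54. Over the 30 alternative settings its adjusted p ran from 1.99e-06 to 0.0124. Its promoter is printed because the receptor's core recognition letters, GCGTG, are in it. The 300 bases run from 250 before to 50 after the RefSeq start (GRCh38.p14 chr15:74725479-74725778, minus strand, printed in the direction of transcription), with GCGTG in capitals, its first base 57 bases upstream of the start.
CYP1A1 promoter: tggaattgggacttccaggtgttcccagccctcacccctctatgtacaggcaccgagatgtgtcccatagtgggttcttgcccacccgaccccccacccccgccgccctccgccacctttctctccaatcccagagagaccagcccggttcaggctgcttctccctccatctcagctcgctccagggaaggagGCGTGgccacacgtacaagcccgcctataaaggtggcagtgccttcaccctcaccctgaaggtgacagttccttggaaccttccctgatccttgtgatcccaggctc
The same letters, on either strand, occurred in 36.5% of 35116 RefSeq promoter windows of this length, in 40% of the 55 matched promoters of genes that rose (of 78) and in 52.8% of the 36 matched promoters of genes that fell (of 46), so the match describes the sequence and nothing more.

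The aryl hydrocarbon receptor list, which includes CYP1A1, had 11 genes. Of these 8 were measured, 2 rose (CYP1A1 and AHRR) and none fell. Above all TNF-α libraries were 5 and below them 1, against 21.3% and 21.1% of all genes. The median difference was 0.19 (GC-adjusted 0.27) against -0.0012 over all genes. AHRR, a repressor that competes with the receptor, rose from 2.02, 1.81 and 2.17 to 3.08, 2.67 and 3.00 FPKM, a difference of 0.52 ± 0.12 (limma, adjusted p = 0.0497) that was 0.35 and not called after GC adjustment. TIPARP, an ADP-ribosyltransferase that also limits the receptor, was at 12.6, 12.2 and 12.7 against 13.6, 13.3 and 13.9 FPKM. Its difference of 0.12 was not called as deposited but was 0.27 and called after GC adjustment. CYP1B1, a related monooxygenase, had a difference of 0.32 with overlapping groups, NQO1, a quinone reductase, one of 0.19, and the receptor gene AHR one of -0.45, none of them called.

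Genes of sterol supply that passed the test were all higher with 5-OH-TMT. Of 24 listed genes for sterol synthesis and uptake, 23 were measured and 5 rose, among them LSS, FDFT1 and TM7SF2. None fell, 13 were above all TNF-α libraries and none was below (against 21.3% and 21.1% of all genes), and the median difference was 0.26. After GC adjustment 3 were called, the median was 0.29, 17 were above and all 23 differences were positive. The list median in single libraries, relative to the TNF-α mean, was 0.27, 0.31 and 0.28 with 5-OH-TMT and 0.098, -0.0056 and -0.027 with TNF-α alone, so the replicates of each group lay close together.

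FDFT1, squalene synthase, and LSS, lanosterol synthase, catalyse steps from farnesyl diphosphate to the first sterol. FDFT1 rose from 29.7, 28.5 and 28.3 to 39.3, 38.7 and 37.7 FPKM and LSS from 4.40, 4.39 and 4.53 to 6.89, 6.02 and 7.24 FPKM, and the groups of both were separate. Their differences were 0.42 ± 0.07 and 0.58 ± 0.09, both called also after GC adjustment (0.44 and 0.40). In medium, where replicate 2 had the steep GC slope of 0.12, that replicate was the highest of its group for LSS (5.30 against 4.51 and 4.34 FPKM) and FDFT1 (38.1 against 32.0 and 31.9 FPKM). It was also the highest for TM7SF2 (3.22 against 2.07 and 2.65 FPKM). The GC content of FDFT1 is 48.6%, near the median of all genes. The fatty acid gene SCD was at 63.2, 79.9 and 80.2 FPKM in medium replicates 1 to 3. It was nearly equal in replicates 2 and 3, whose slopes were 0.12 and -0.12. SREBF1 was highest in replicate 2 (33.4 against 26.6 and 27.05 FPKM). So were SREBF2 (27.6 against 22.8 and 23.0 FPKM) and ACSS2 (23.8 against 21.3 and 19.6 FPKM). The part of the slope in these genes beyond the GC adjustment was not tested.

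Not every enzyme of the pathway followed. SQLE, squalene epoxidase, was at 17.8, 18.4 and 17.8 against 17.9, 17.4 and 20.2 FPKM, and its difference of 0.04 (95% interval -0.13 to 0.20) had overlapping groups. Its GC content is 46.5% and its GC-adjusted difference was 0.10, not called. TM7SF2, a sterol reductase, rose from 1.76, 1.31 and 1.48 to 2.74, 2.92 and 2.37 FPKM, by 0.78, and was not called after GC adjustment (0.57). INSIG1, which retains the SREBP complex in the endoplasmic reticulum, was at 6.48, 5.04 and 4.50 against 8.57, 9.04 and 9.02 FPKM, a difference of 0.74 ± 0.17 that missed the threshold (adjusted p = 0.0505).

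Fatty acid genes and the SREBP factors themselves were mixed. Of 18 listed, 16 were measured and 4 rose (SCD, SREBF1, SREBF2 and ACSS2). Of the 16, 11 were above and 3 below all TNF-α libraries (21.3% and 21.1% of all genes), with a median of 0.23. After GC adjustment the median was 0.15, with 9 above and none below (12% and 12% of all genes). SCD, the desaturase that makes oleate, was at 65.0, 58.4 and 44.2 FPKM under TNF-α and 105, 101 and 101 FPKM with 5-OH-TMT. The TNF-α replicates were the more scattered, yet all lay below the treated ones. The difference was 0.89 ± 0.12 (limma, adjusted p = 0.0168; 0.94 after GC adjustment, called), with the call kept in 9 of 12 fits with a library left out and lost without TNF-α replicate 2 (adjusted p = 0.0589), 5-OH-TMT replicate 1 (0.111) or 5-OH-TMT replicate 3 (0.0684). In medium SCD averaged 74.4 FPKM. SREBF1, which encodes the SREBP for fatty acid genes, went from 23.7, 23.7 and 20.5 to 38.3, 35.5 and 36.2 FPKM, a difference of 0.70 ± 0.10 (adjusted p = 0.0168; 0.48 and called after GC adjustment). SREBF2, its sterol counterpart, rose by 0.46 but was not called after GC adjustment (0.30), and ACSS2, which activates acetate, rose by 0.44 and was (0.33). FASN, fatty acid synthase, was above all TNF-α libraries by 0.51 without passing (adjusted p = 0.0559), and ELOVL5, ELOVL6 and ME1 were the 3 below.

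Promoters of SCD and LSS are shown because both genes are known SREBP targets that were called with and without GC adjustment, and CCAAT boxes, bound by the factor NF-Y, commonly sit beside SREBP sites. Both windows are 300 bases of GRCh38.p14 in the direction of transcription, chr10:100346983-100347282 (plus strand) for SCD and chr21:46228725-46229024 (minus strand) for LSS. Capitals mark CCAAT or its reverse complement ATTGG, which start 229 and 186 bases upstream of the start in SCD and 150 bases upstream in LSS.
SCD promoter: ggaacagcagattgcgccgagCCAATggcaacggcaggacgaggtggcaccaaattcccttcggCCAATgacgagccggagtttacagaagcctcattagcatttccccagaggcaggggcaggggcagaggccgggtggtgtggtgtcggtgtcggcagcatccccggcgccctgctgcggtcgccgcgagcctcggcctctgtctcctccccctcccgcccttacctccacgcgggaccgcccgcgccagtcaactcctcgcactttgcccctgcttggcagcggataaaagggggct
LSS promoter: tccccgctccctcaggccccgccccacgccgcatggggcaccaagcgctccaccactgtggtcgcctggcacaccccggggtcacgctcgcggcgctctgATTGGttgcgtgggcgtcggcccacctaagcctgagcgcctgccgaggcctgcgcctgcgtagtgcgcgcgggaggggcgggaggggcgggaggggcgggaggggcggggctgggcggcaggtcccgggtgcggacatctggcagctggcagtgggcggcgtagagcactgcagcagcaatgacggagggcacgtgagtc
CCAAT in either direction occurred in 34.6% of all promoter windows, in 34.5% of those of genes that rose and in 38.9% of those of genes that fell.

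**Figure D3:**
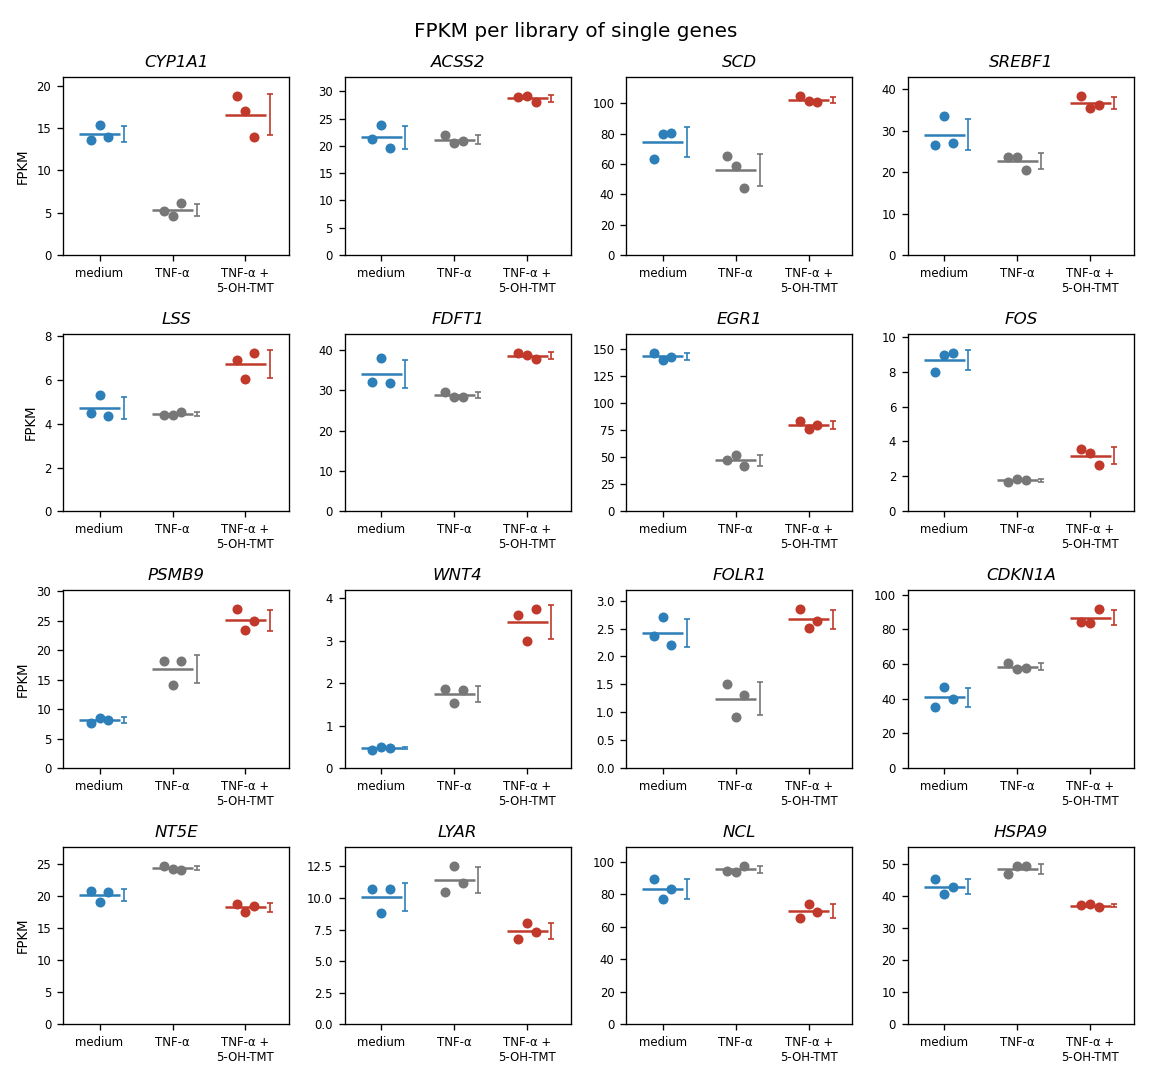
FPKM of 16 genes in each library of the medium, TNF-α and TNF-α with 5-OH-TMT groups (points), with the mean (line) and SD (bar) of 3 libraries. CYP1A1, EGR1 and FOS are lower with TNF-α alone than in medium and higher again with 5-OH-TMT, and every panel's scale starts at 0.

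Immediate-early transcription factors, which are switched on within minutes of growth factor or stress signals, had calls in the higher direction only. Of 25 listed, 18 were measured, 4 rose (EGR1, FOS, JUN and JUNB), none fell and 11 were above all TNF-α libraries with none below, against 21.3% and 21.1% of all genes. The list's median GC content was 56.0%, in a bin where 36.5% of all genes were above and 2.6% below. After GC adjustment the median difference of 0.23 was 0.10, with 7 above and none below (12% and 12% of all genes). EGR1, a zinc-finger factor, was at 47.3, 52.2 and 42.1 FPKM under TNF-α and 83.2, 75.9 and 79.9 FPKM with 5-OH-TMT. In medium it was at 147, 140 and 143 FPKM, so the 5-OH-TMT libraries stood between the other groups without overlap. The difference was 0.76 ± 0.09 (limma, adjusted p = 0.00745), 0.63 and called after GC adjustment, and it missed the threshold only without 5-OH-TMT replicate 1 (adjusted p = 0.0575) among the 12 fits with a library left out.

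FOS, the partner of JUN in the factor AP-1, was at 1.69, 1.84 and 1.82 FPKM under TNF-α, 3.57, 3.34 and 2.64 FPKM with 5-OH-TMT and 7.98, 8.92 and 9.08 FPKM in medium. It rose by 0.79 (adjusted p = 0.0219) and was called after GC adjustment (0.72). JUN, by 0.44, and JUNB, by 0.42, rose as deposited but had GC-adjusted differences of 0.29 and 0.21 that were not called. The EGR1 promoter is shown for its CArG boxes, the sites of serum response factor (in capitals, their first bases 105 and 83 bases upstream of the start) in GRCh38.p14 chr5:138465229-138465528, plus strand.
EGR1 promoter: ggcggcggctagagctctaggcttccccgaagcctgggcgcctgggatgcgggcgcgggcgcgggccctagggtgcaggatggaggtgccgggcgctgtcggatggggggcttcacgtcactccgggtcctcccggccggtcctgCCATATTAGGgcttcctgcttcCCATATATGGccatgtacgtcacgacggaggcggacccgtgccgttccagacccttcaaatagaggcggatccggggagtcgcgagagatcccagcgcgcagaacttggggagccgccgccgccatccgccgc
A CArG box was present in 1.29% of all windows, in 3.64% of those of genes that rose and in none of those of genes that fell.

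Genes induced by TNF-α through NF-κB were not called in either direction, although many lay slightly higher. Of 35 listed, 24 were measured and 9 were above all TNF-α libraries with none below (21.3% and 21.1% of all genes). The list's median GC content was 52.8%, in a bin where 36.5% of all genes were above and 2.6% below. The median difference was 0.26. After GC adjustment it was 0.16, with 4 above and none below (12% and 12% of all genes). At an unadjusted p under 0.05 limma had 10 higher and none lower, against 1444 and 1621 of all 11138 genes. With voom on the recovered reads 5 were called higher and none lower, against 254 and 277 of all genes. The median rested on 5-OH-TMT replicate 3: list medians in the 3 treated libraries were 0.15, 0.062 and 0.47, and without replicate 3 the median difference was 0.12 (GC-adjusted 0.0014), with 9 above and 4 below. TNFAIP2, a cytoplasmic protein strongly induced by TNF-α, was at 135, 129 and 132 FPKM against 182, 167 and 272 FPKM, a difference of 0.61 with adjusted p = 0.0559. ICAM1, the adhesion molecule for leukocyte integrins, was at 14.2, 14.5 and 13.4 against 17.6, 17.2 and 25.7 FPKM. Both were highest in replicate 3. The inhibitor gene NFKBIA had a difference of 0.12 (95% interval -0.04 to 0.28), TNFAIP3, which encodes the deubiquitinase A20, one of 0.06 (-0.25 to 0.37), and the neutrophil chemokines CXCL8 and CXCL1 ones of -0.14 (-0.58 to 0.30) and -0.20 (-0.52 to 0.12), with overlapping groups. Of 18 matrix metalloproteinases, their inhibitors and plasminogen activators 15 were measured and limma called none (6 higher at an unadjusted p under 0.05, and 1 called higher by voom), and their median of 0.21 was 0.10 without replicate 3.

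Antigen presentation through MHC class I, by which peptides cut by the proteasome are carried to the surface, had calls in 2 processing subunits. Of 18 listed genes 16 were measured and 2 rose (PSMB9 and PSMB10), against 0.700% of all genes. Of the 16, 10 were above all TNF-α libraries and none was below (21.3% and 21.1% of all genes), with a median of 0.23. The list's median GC content was 56.2%, in a bin where 36.5% of all genes were above and 2.6% below. After GC adjustment the median was 0.19, with 9 above and 1 below (12% and 12% of all genes). PSMB9, an immunoproteasome catalytic subunit, was at 18.2, 14.1 and 18.2 FPKM under TNF-α and 27.0, 23.4 and 24.9 FPKM with 5-OH-TMT, and in medium at 7.63, 8.54 and 8.20 FPKM. The 3 groups were separate, rising from medium through TNF-α to the libraries with the compound. The difference was 0.58 ± 0.10 (limma, adjusted p = 0.0280; 0.64 and called after GC adjustment). PSMB10, another such subunit, rose from 13.1, 12.3 and 11.5 to 18.3, 16.8 and 18.1 FPKM, by 0.53, and was called after GC adjustment too (0.33). The peptide transporter TAP1 had 0.41 (adjusted p = 0.0559), whereas B2M, the light chain shared by class I molecules, had 0.02 (95% interval -0.13 to 0.16).

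Interferon-stimulated genes were mixed. Of 41 listed 33 were measured and 1 rose (IFI35, by 0.52, not called after GC adjustment). Of the 33, 8 were above and 1 was below all TNF-α libraries, against 21.3% and 21.1% of all genes. The list's median GC content was 44.4%, in a bin where 3.4% of all genes were above and 36.6% below. After GC adjustment 25 differences were positive and 8 negative, with 9 above and 1 below (12% and 12% of all genes). The median of 0.16 (GC-adjusted 0.13) was 0.092 without 5-OH-TMT replicate 3 (GC-adjusted 0.057). OAS1 and GBP1 had differences of 0.54 and 0.40 that did not pass, while HERC5, HERC6 and IFIT2 had -0.32, -0.27 and -0.19. APOBEC3G, a cytidine deaminase that restricts retroviruses, rose outside that list from 2.95, 2.78 and 2.94 to 4.40, 4.47 and 4.62 FPKM (0.62; 0.515 and called after GC adjustment).

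Among other genes that rose, WNT4, a secreted Wnt ligand, had 0.434, 0.489 and 0.473 FPKM in medium, 1.87, 1.53 and 1.83 FPKM under TNF-α and 3.61, 2.98 and 3.75 FPKM with 5-OH-TMT. The 3 groups were again separate in that order. Its difference was 0.94 ± 0.12 (limma, adjusted p = 0.0120) and 0.78, also called, after GC adjustment. As deposited the call was kept in 9 of 12 fits with a library left out. It was lost without TNF-α replicate 2 (limma, adjusted p = 0.0589), 5-OH-TMT replicate 1 (0.0997) or 5-OH-TMT replicate 3 (0.0684). After GC adjustment 3 of the 12 fits kept the call. WNT10A, a second ligand, rose from 23.9, 25.6 and 24.3 to 36.7, 32.2 and 35.5 FPKM, by 0.50 (0.29 and called after GC adjustment). These 2 were the only calls among 22 measured of 40 listed Wnt pathway genes, whose median was 0.08. FOLR1, the folate receptor alpha, was at 1.51, 0.915 and 1.30 against 2.85, 2.51 and 2.63 FPKM (1.07 ± 0.15; adjusted p = 0.0168; 0.94 and called after GC adjustment). It was the only call among 14 measured of 17 folate and one-carbon genes.

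CDKN1A, the cyclin-dependent kinase inhibitor p21, rose from 60.8, 57.3 and 57.6 to 84.4, 84.0 and 91.7 FPKM, a difference of 0.56 (0.39 and called after GC adjustment). In medium it was at 35.4, 46.8 and 39.8 FPKM. TP53I3 was the other of 20 measured p53 targets (24 listed) that rose, and the list median was 0.05. UCN2, a urocortin peptide of the stress hormone family, rose by 0.92 from 2.63, 3.25 and 2.86 to 5.70, 4.92 and 6.17 FPKM. SNCG rose by 0.64, WFDC2 by 0.80 and SLC2A6, a glucose transporter family member, by 0.815. Of 55 keratins 17 were measured and KRT13 alone rose (0.86). Of the 17, 10 were above all TNF-α libraries and 2 below (21.3% and 21.1% of all genes), with a median of 0.31. The list's median GC content was 56.8%, in a bin where 36.5% of all genes were above and 2.6% below. After GC adjustment the keratin median was 0.10, with 4 above and 2 below (12% and 12% of all genes). CHAC1, a glutathione-degrading enzyme, rose by 0.67 and PHGDH, the entry enzyme of serine synthesis, by 0.38, as 2 of 31 measured members (35 listed) of the integrated stress response, with a median of 0.12. ASS1, argininosuccinate synthase, rose by 0.51. After GC adjustment UCN2 and WFDC2 were still called (0.72 and 0.76), whereas TP53I3, SNCG, SLC2A6, KRT13, CHAC1, PHGDH and ASS1 were not.

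Ribosome biogenesis is the assembly of ribosomal subunits in the nucleolus. A list of 38 ribosome biogenesis genes, assembled after the values had been seen and so no independent support, had 36 measured members, of which 4 fell (LYAR, RSL1D1, NCL and NOLC1), 23 were below all TNF-α libraries and none was above. The list's median GC content was 46.1%, in a bin where 36.6% of all genes were below and 3.4% above. Its median difference was -0.26 as deposited and -0.20 after GC adjustment. LYAR alone was then called, and 22 were below and 1 above (12% and 12% of all genes). LYAR, a nucleolar zinc-finger protein, was at 10.5, 12.6 and 11.2 FPKM under TNF-α and 6.79, 8.02 and 7.32 FPKM with 5-OH-TMT, a difference of -0.62 ± 0.11 (limma, adjusted p = 0.0329) that was also called after GC adjustment (-0.49). NCL, nucleolin, fell from 94.6, 93.7 and 97.6 to 65.6, 74.1 and 69.4 FPKM (-0.45 ± 0.10; adjusted p = 0.0490), and its GC-adjusted difference of -0.40 was not called. The nucleolar chaperone NPM1 was at 268, 289 and 326 against 221, 227 and 218 FPKM without passing (-0.40; adjusted p = 0.0606). For the ribosomal proteins themselves, 82 of 86 were measured and limma called none. At an unadjusted p under 0.05 limma had 2 higher and 13 lower of the 82, against 1444 and 1621 of all 11138 genes. With voom 4 were called lower, against 277 of all genes. Of the 82, 14 were above and 17 below (21.3% and 21.1% of all genes), with a median of 0.04.

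Mitochondrial chaperones and proteases, the group to which HTRA2 belongs, had 1 call. Of 20 listed genes 19 were measured, 1 fell, and 3 were above and 9 below all TNF-α libraries (21.3% and 21.1% of all genes). The list's median GC content was 44.2%, in a bin where 36.6% of all genes were below. Its median difference was -0.22 (GC-adjusted -0.11, 1 above and 8 below, against 12% and 12% of all genes). HSPA9, the matrix chaperone mortalin, fell from 46.8, 49.5 and 49.3 to 37.2, 37.5 and 36.5 FPKM (-0.39; adjusted p = 0.0310; -0.26 and not called after GC adjustment). HSPD1 and HSPE1, which form the matrix folding chamber, had differences of -0.41 and -0.45 with separate groups but did not pass. Of 76 measured mitochondrial ribosomal proteins (78 listed) 3 fell, MRPL1 by the most at -0.60, and none was called after GC adjustment. Of the 76, 11 were above and 22 below (21.3% and 21.1% of all genes), with a median of -0.06. The 13 mRNAs of the mitochondrial genome had no member without overlap between groups and a median of -0.01.

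Of 36 listed replication genes 35 were measured, 2 fell (MCM6, a helicase subunit, by 0.39, and RFC3, a clamp loader subunit, by 0.51), 16 were below and 2 above all TNF-α libraries (21.1% and 21.3% of all genes), and the median was -0.17. After GC adjustment neither was called (-0.25 and -0.30), and the median was -0.16 with 19 below and none above. Of 30 listed mitotic genes 29 were measured and 1 fell (MAD2L1, a spindle checkpoint protein). Its difference was -0.43, and -0.23 and not called after GC adjustment. Of the 29, 14 were below and none above, against 21.1% and 21.3% of all genes. The list's median GC content was 43.2%, in a bin where 36.6% of all genes were below and 3.4% above. The median difference of -0.19 was -0.07 after GC adjustment, with 9 below and none above (12% and 12% of all genes). MCM6 was at 27.2, 26.8 and 27.9 FPKM under TNF-α and 20.4, 22.3 and 19.9 FPKM with 5-OH-TMT, with no overlap. The proliferation marker MKI67 had a difference of 0.03.

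NT5E, the ecto-enzyme that makes adenosine from AMP, was at 24.7, 24.2 and 24.0 FPKM under TNF-α and 18.7, 17.4 and 18.5 FPKM with 5-OH-TMT. Both groups were tight. Its difference of -0.41 ± 0.07 (limma, adjusted p = 0.0236) was -0.32 and called after GC adjustment, and it was the only call among 9 measured of 15 adenosine signalling genes. FST, the activin-binding protein follistatin, fell from 7.55, 9.80 and 9.13 to 4.31, 5.51 and 5.51 FPKM (-0.78), with a medium mean of 2.97 FPKM. F3, tissue factor, which starts coagulation, was at 212, 242 and 222 FPKM under TNF-α, 160, 170 and 183 FPKM with 5-OH-TMT and 116, 96.4 and 101 FPKM in medium, a difference of -0.40 (adjusted p = 0.0490). Neither FST nor F3 was called after GC adjustment.

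**Figure D4:**
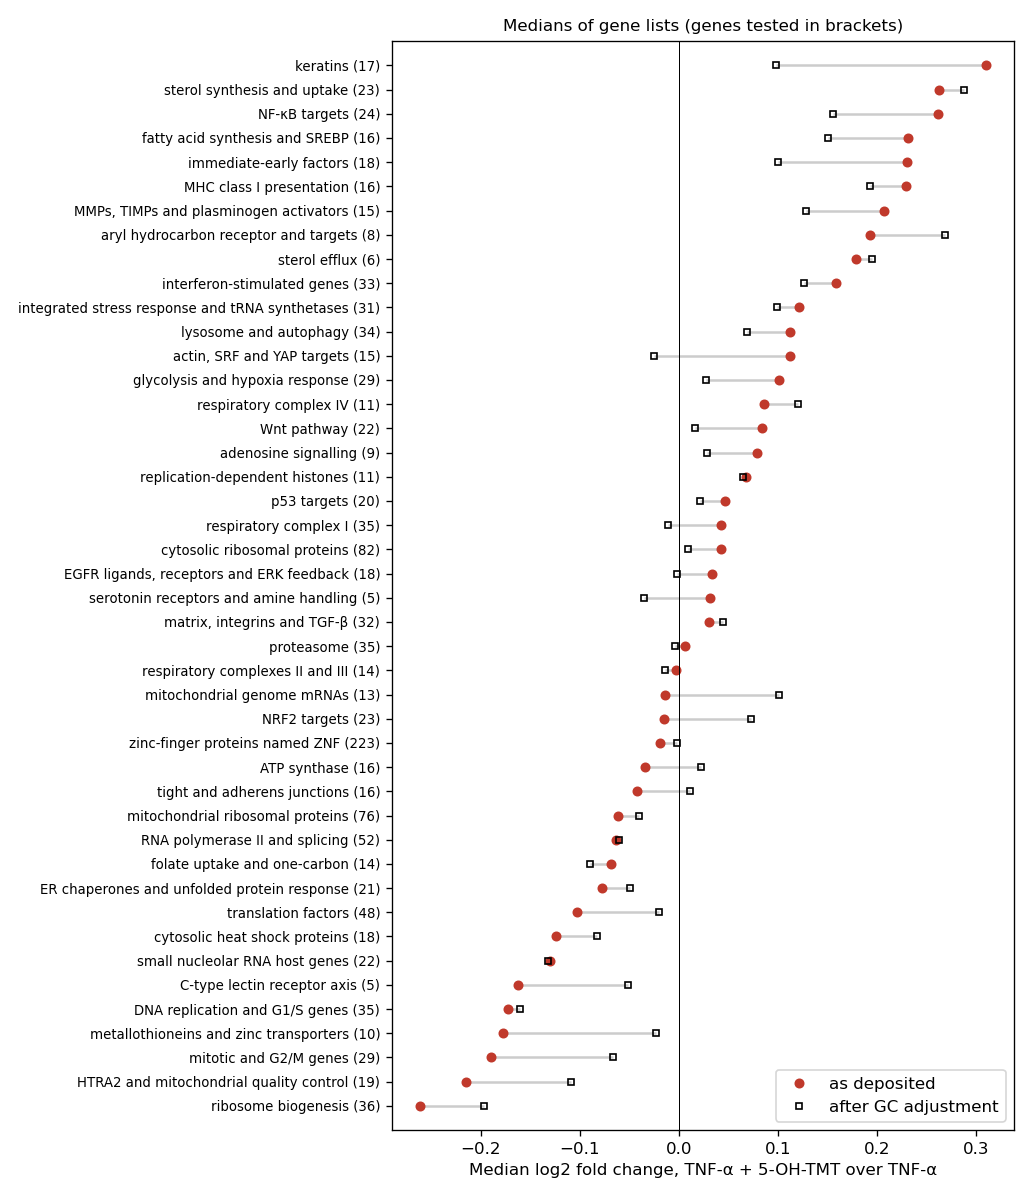
Median log2 difference (5-OH-TMT minus TNF-α) over the measured members of each gene list, as deposited and after GC adjustment. Sterol genes have the medians 0.26 and 0.29, ribosome biogenesis genes -0.26 and -0.20, and the keratin median moves from 0.31 to 0.10.

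**Figure D5:**
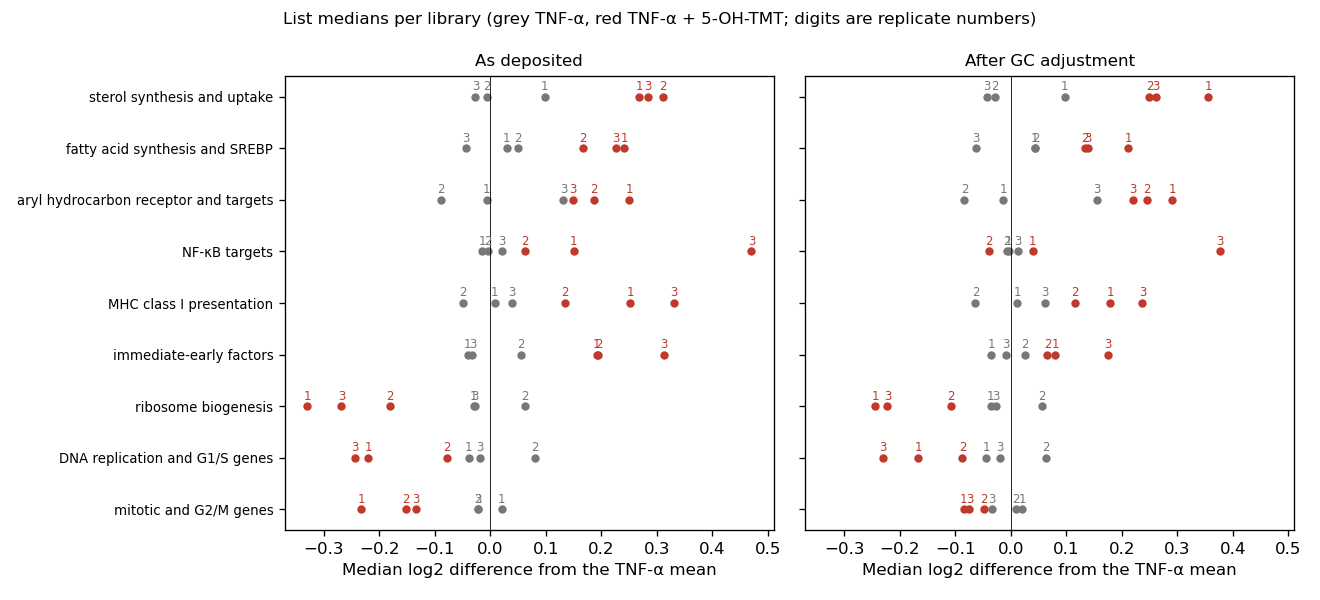
Median log2 deviation from the TNF-α mean of 9 gene lists in each of the 6 libraries, as deposited and after GC adjustment. The sterol list is at 0.27, 0.31 and 0.28 in the 5-OH-TMT libraries, and the NF-κB list at 0.15, 0.062 and 0.47, highest in replicate 3.

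Of the genes that the study names for these cells, those measured were not called, and the others were below the 1 FPKM limit. CLDN1, OCLN and TJP1, which encode the junction proteins claudin-1, occludin and ZO-1, had differences of -0.11 (95% interval -0.28 to 0.07), -0.11 (-0.35 to 0.14) and -0.03 (-0.25 to 0.19) with overlapping groups, and all 3 changed sign after GC adjustment (0.06, 0.09 and 0.07). Of 19 listed junction genes 16 were measured, 1 rose (TJP3, encoding ZO-3, by 0.48; 0.26 and not called after GC adjustment), 3 were above and 3 below all TNF-α libraries (21.3% and 21.1% of all genes), and the median was -0.04. HTRA2 had 0.07 (-0.12 to 0.26), which was -0.13 after GC adjustment. S100A9, a calcium-binding alarmin, was at 70.7, 60.4 and 66.6 against 88.7, 85.9 and 88.8 FPKM, with separate groups. Its difference of 0.42 did not pass (limma, adjusted p = 0.129), although S100A9 was called in 4 of 30 alternative settings.

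Of 17 genes in the C-type lectin receptor list 5 were measured and limma called none (BCL10 alone, at -0.30, had an unadjusted p under 0.05, and voom called none), and the median was -0.16 (GC-adjusted -0.05). CLEC7A itself, which encodes Dectin-1, fell below the 1 FPKM limit, with 62, 54 and 73 reads under TNF-α and 92, 68 and 81 reads with 5-OH-TMT. An exact permutation test of the log2(FPKM + 0.1) values (two-sided) gave p = 0.2, where 3 against 3 libraries allow no value under 0.1. Its adaptor CARD9 had 8, 5 and 9 against 17, 16 and 5 reads and its kinase SYK 21, 23 and 32 against 19, 35 and 41 reads, both with overlapping groups. The mucin gene MUC2, with 9, 7 and 3 against 20, 5 and 15 reads, and the bacterial sensor NOD2, with 19, 4 and 48 against 23, 19 and 18 reads, were as scattered within groups as between them.

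5-OH-TMT is a tryptamine, and serotonin, whose receptors these genes encode, is another. Of 17 serotonin receptor genes, 11 had 0 reads in all 6 libraries and 13 had no more than 3 reads in every library. HTR7, a receptor coupled to cyclic AMP, was the most abundant in reads, with 238, 145 and 227 under TNF-α and 193, 169 and 193 with 5-OH-TMT, and its difference was -0.12 (95% interval -0.51 to 0.26). Of 25 listed serotonin and amine genes 5 were measured, and none was without overlap between groups.

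Some of the changes of greatest size were in genes with near-identical copies, between which the counting could split reads, and they are uncertain. SPCS2, a signal peptidase subunit, fell with 1675, 1555 and 1971 reads against 862, 1202 and 963 (-0.81), while its pseudogene SPCS2P4 had 223, 84 and 153 against 492, 404 and 587 reads. MEMO1P1 rose from 60, 76 and 44 to 164, 190 and 168 reads, whereas the parent gene MEMO1 had 128, 136 and 154 against 128, 121 and 151. PDIA3P2, which had the largest difference of the 124 (2.02), rested on 1, 3 and 3 against 12, 10 and 10 reads.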

How the data were processed

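Total RNA of NCM460 cells was made into poly(A)-selected libraries, 12 in all. The submitters' processing notes name CASAVA 1.8, HISAT2 2.0.4, HTSeq 0.9.1 and hg38. The authors deposited 1 table of FPKM values per gene and library. Reads per gene were recovered from the FPKM steps: 100% of values came out whole, to a tolerance of 0.1 read. Strand use in counting is not given in the sources used here, so reads of overlapping and antisense genes cannot be told apart.

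log2(FPKM + 0.1) values of genes with a mean of at least 1 FPKM over the 6 libraries were fitted with limma 3.58.1 (R 4.3.3), 4 groups sharing 1 trended variance, and p-values were Benjamini-Hochberg adjusted over all 11138 genes at 0.05. Fold changes of low genes are understated on this scale. The GC adjustment used a natural spline with 5 degrees of freedom per library on the GC content of 11134 genes (GENCODE 29). It, the voom and length settings and the ribosome biogenesis list were chosen after the values were seen, and the members and all lists were chosen with earlier results of these data known. Named genes were those with adjusted p under 0.05 (up to 15 largest rises and falls), the largest separate changes overall and among genes of at least 100 FPKM, up to 4 members per list with the smallest p, and genes the study names for these cells. Members outside that rule (SQLE, INSIG1, NFKBIA, TNFAIP3, CXCL8, CXCL1, B2M, MKI67 and similar) were named after their values were seen, to show members that were not called. Promoters came from RefSeq (GRCh38.p14). The fit was also run on simulated reads whose changes were larger than most seen here and whose spread was set alike in all groups. That run cannot speak to the small shifts or to calls that depend on single libraries. Alternatives covered the pseudocount, filter, scaling, groups fitted, replicate block, variance trend, GC content and each library left out. Short genes just over 1 FPKM can rest on a few reads, and exact permutation tests were used for genes below it. Some genes are not reported here.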

Additional observations from a re-analysis of the deposited data

How the results depend on the processing

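Genes with adjusted p under 0.05 numbered 124, and 114 and 116 at pseudocounts of 1 and 0.01 (113 and 116 of them shared with the 124), 124 after rescaling by the median of ratios (all shared) and 115 after rescaling to a fixed sum (84 shared), where 76.5% instead of 62.9% of calls were higher. The count was 7 with a filter of 0.1 FPKM over the 12 libraries, 5 with no filter, 396 with a filter of 10 FPKM, 255 after quantile normalization, 9 without the variance trend, 825 without the knockdown libraries, 2157 in the fit to the 6 libraries and 531 with voom on the recovered reads. GC adjustment gave 35, with length as well 47, and in the fit to 2 groups 3. With a library left out the count ran from 2 to 1320. Genes changed over 2-fold with unadjusted p under 0.05 numbered 28, and 11 at a pseudocount of 1, 271 and 370 with the lower and no filter, 3 with the higher filter, 48 after quantile normalization and 27 to 40 with a library left out. Genes without overlap numbered 4728, and 2206 with the higher filter, 2672 after GC adjustment (also in the 2-group fit and with the block) and 2718 with length as well. The causes were not tested, except that the higher filter tests fewer genes.

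The replicate block gave 13 calls, 1968 in the fit to the 6 libraries and 17 with GC adjustment. Correlations of same-numbered libraries' deviations were 0.029, 0.10 and -0.031, and not every library correlated best with its own number. Whether the numbers pair the samples cannot be settled from these values.

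Some differences that were not called changed sign. With GC adjustment (also in the 2-group fit and with the block) they became -0.0364 for CLDN7, 0.0630 for CLDN1, 0.0886 for OCLN, -0.0564 for PRKCD, 0.0296 for MALT1, -0.132 for HTRA2 and 0.0724 for TJP1. With length as well they were -0.0281, 0.0832, 0.0823 and -0.0419 for CLDN7, CLDN1, OCLN and PRKCD, and -0.120 and 0.0388 for HTRA2 and TJP1. TJP1 ranged from -0.133 to 0.033 with a library left out. Over other single genes and list medians, 3944 alternative values kept direction and side of the threshold, 867 kept direction but lost the call, 298 gained one and 174 list medians moved by more than the spread between libraries.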
